A study of Mus musculus with 6 samples.

Results

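The 4 genes of the CD3 chains, Cd3g, Cd3d, Cd3e and Cd247, and Ptcra, which encodes pre-TCR alpha, were followed in early thymic progenitors with and without Tcf1. Every probe set to which the platform annotation gives 1 of these 5 symbols was taken, which gave 8 probe sets of 45037 and 5 genes of 18193. Cd3g, Cd3d, Cd3e and Ptcra had 1 probe set each and Cd247 had 4. The study measured RNA with Affymetrix Mouse Genome arrays in 3 Tcf1-/- and 3 Tcf1-/+ samples of thymocytes. All were from C57Bl/6 mice killed at 10 weeks of age, and the cells were sorted as negative for lineage markers and CD25 and positive for CD44 and kit, which is the earliest T-lineage stage of the thymus. The titles name the second genotype Tcf1-/+, so these controls carry 1 inactivated allele, while another label of the same samples reads wild type. On average 1000 cells gave 3 ng of RNA, which was amplified before labelling. The titles call the arrays biological replicates, and the number of animals behind each is not stated.

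The CD3 chains carry the signal of the T-cell receptor, whose own chains have almost no part inside the cell. CD3 epsilon pairs with CD3 gamma and with CD3 delta, and CD3 zeta, the product of Cd247, joins as a dimer. Each chain holds tyrosine motifs (ITAMs) that Src-family kinases phosphorylate and that recruit the kinases Zap70 and Syk. Pre-TCR alpha stands in for the alpha chain when a thymocyte first tests its beta chain, a later step than the progenitors sampled here. Tcf1, the product of Tcf7, is an HMG-box protein that was first described by its binding to the enhancer of the human CD3E gene, which lies downstream of that gene.

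In the RefSeq annotation of GRCm38.p6, Cd3g, Cd3d and Cd3e lie together on chromosome 9, at chr9:44969572-44980431, chr9:44981769-44987052 and chr9:44998735-45009663. The start sites of Cd3g and Cd3d in the RefSeq promoter table are 1355 bases apart and point away from each other, and those of Cd3d and Cd3e are 27825 bases apart. Cd247 lies at chr1:165779952-165871153 and Ptcra at chr17:46755663-46763712. The 250 bases before the start sites of the 3 clustered genes and of Cd247 are printed because they allow the Tcf1 motif to be compared between the chains that had lower Tcf1-/- means and Cd247, whose brightest probe set had the smallest difference. They are from the RefSeq table of GRCm38.p6, read 5' to 3' on the strand of the gene, and capitals mark CTTTGA or CTTTGT, cores of the TCF/LEF motif, on either strand (TCAAAG or ACAAAG when read on the gene's strand). The windows are chr9:44981536-44981785 on the plus strand for Cd3d, chr9:44980432-44980681 on the minus strand for Cd3g, chr9:45009612-45009861 on the minus strand for Cd3e and chr1:165788431-165788680 on the plus strand for Cd247. The Cd247 window lies inside the gene interval given above, downstream of the interval's first base, and so does not precede the whole annotated gene. The windows of Cd3d and Cd3e also reach into the first bases of their gene intervals.
Cd3d: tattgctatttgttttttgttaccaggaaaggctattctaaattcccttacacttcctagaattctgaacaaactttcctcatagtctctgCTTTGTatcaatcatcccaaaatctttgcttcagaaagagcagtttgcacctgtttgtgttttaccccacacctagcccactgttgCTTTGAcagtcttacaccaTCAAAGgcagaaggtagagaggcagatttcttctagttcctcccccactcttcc
Cd3g: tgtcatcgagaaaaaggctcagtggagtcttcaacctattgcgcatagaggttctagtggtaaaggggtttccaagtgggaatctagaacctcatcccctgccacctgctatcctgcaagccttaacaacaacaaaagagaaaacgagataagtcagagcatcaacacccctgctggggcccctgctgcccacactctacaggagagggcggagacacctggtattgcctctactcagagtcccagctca
Cd3e: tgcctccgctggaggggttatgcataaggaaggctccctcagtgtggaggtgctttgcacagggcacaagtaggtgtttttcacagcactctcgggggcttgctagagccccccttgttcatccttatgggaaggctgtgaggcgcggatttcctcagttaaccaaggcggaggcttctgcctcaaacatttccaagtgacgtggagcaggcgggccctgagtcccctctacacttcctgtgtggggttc
Cd247: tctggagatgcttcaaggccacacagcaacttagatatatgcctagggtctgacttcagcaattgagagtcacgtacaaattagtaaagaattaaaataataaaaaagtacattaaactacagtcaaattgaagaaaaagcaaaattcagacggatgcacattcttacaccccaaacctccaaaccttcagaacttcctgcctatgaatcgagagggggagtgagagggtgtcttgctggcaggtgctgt

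The window of Cd3d held CTTTGA at 2 places, whose first bases lie at -73 and, on the opposite strand, at -54, and CTTTGT at -159, with no overlap between them. The windows of Cd3g, Cd3e, Cd247 and Ptcra held neither core. At least 1 CTTTGA was found in 13.8% of the 32851 promoter windows of this length, at least 2 in 1.37%, CTTTGT in 16.5% and either core in 27.6%. The E-box CANNTG, the motif of E proteins, which reads the same on both strands, occurred 3 times in the Cd3g window, 2 times in those of Cd247 and Ptcra and 1 time in those of Cd3d and Cd3e, and in 66.2% of all windows. The GATA motif AGATAA, searched on both strands, occurred 1 time in the Cd3g window, at -104, and in 9.99% of all windows, and the ETS motif AGGAAG occurred in the windows of Cd3d, Cd3e and Cd247 and in 29.5% of all. These matches describe letters in a window and were not tested for binding.

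Values are log2 levels per probe set as deposited, and the level of background was taken as 5.21, the 95th percentile of 27 control probe sets for bacterial transcripts. Array medians lay between 5.80 and 5.86. Tcf1-/- replicate 2 stood apart from the rest. It correlated with the other 5 arrays between 0.870 and 0.893, against 0.913 to 0.933 among those 5, and limma gave it an array weight of 0.533, against 1.08 to 1.19 for the others. The mean level of 3 Y-linked genes was 5.0, 8.49 and 8.42 in Tcf1-/-, against 4.07, 9.39 and 4.01 in Tcf1-/+, so high and low Y-linked signal occurred within each genotype. Tcf7 itself had no probe set with its symbol in the annotation used, and the labels were therefore not checked on the targeted gene. At an adjusted p of 0.05, limma called 0 of the 45037 probe sets, or 0%, and at an unadjusted p of 0.05 it found 2917. None of the differences given here passed the adjusted threshold.

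**Figure D1:**
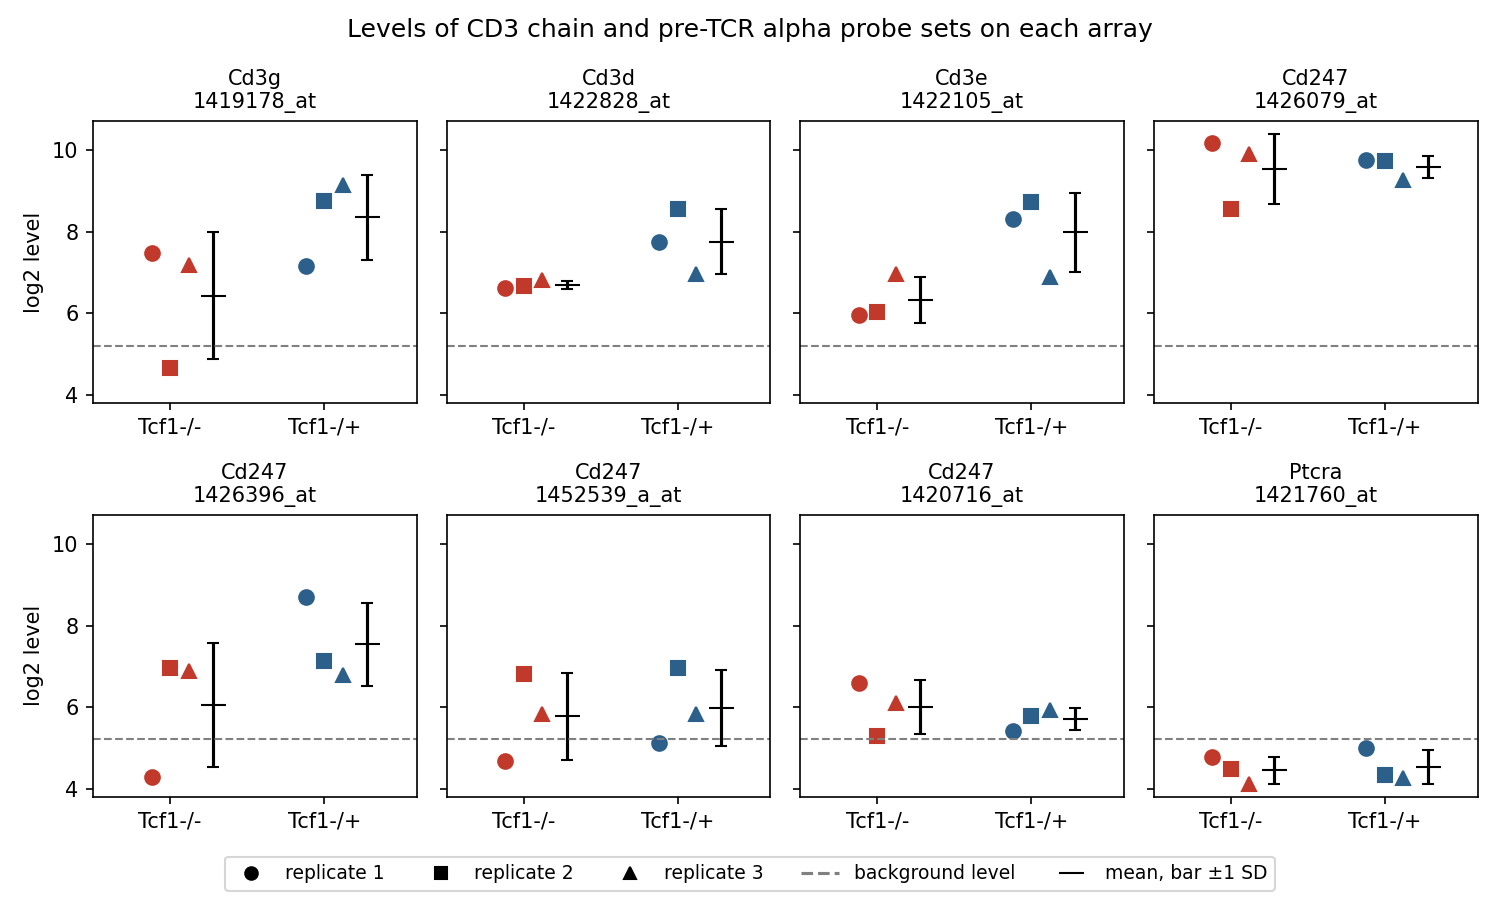
Log2 level (vertical axis) of each of the 8 probe sets on every array, with Tcf1-/- in red on the left and Tcf1-/+ in blue on the right of each panel. Marker shape gives the replicate number, the black bar the mean ± 1 SD (n = 3) and the dashed line the background level of 5.21. Cd3d is the probe set on which no Tcf1-/- array reaches a Tcf1-/+ array, and Ptcra lies under the dashed line on all 6 arrays.

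The 3 chains that are specific to the T-cell receptor complex, gamma, delta and epsilon, had lower mean levels in Tcf1-/- progenitors, by 1 to 2 log2 units, while the means of the brightest zeta chain probe set lay 0.04 apart on the log2 scale and pre-TCR alpha was not measured above background in either genotype. All 5 genes had a lower mean in Tcf1-/-, counting Cd247 and Ptcra whose differences were near 0, as had 45.7% of all genes. Cd3e and Cd3d, 2 of the 5, reached an unadjusted p under 0.05 with a lower Tcf1-/- mean, and over all genes 3.4% did. Neither reached it when Tcf1-/- replicate 1, Tcf1-/- replicate 2, Tcf1-/+ replicate 1 or Tcf1-/+ replicate 2 was left out, with p between 0.0672 and 0.0958, and Cd3d did not without Tcf1-/- replicate 3 either, with p of 0.0769. The genotypes did not overlap for 1 of the 5, Cd3d, and 4.94% of all genes were lower and 7.22% higher in Tcf1-/- without overlap. A difference of -1 log2 or lower was found for 3 of the 5 and for 4.83% of all genes. The genes were chosen with earlier results of these arrays known, so these counts describe them and are not a test of the group. In sorted populations, fewer cells of a type and less RNA per cell cannot be told apart.

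Cd3e encodes the epsilon chain, which is shared by both CD3 dimers. Its log2 level was 5.97, 6.04 and 6.97 on the Tcf1-/- arrays, against 8.32, 8.73 and 6.90 on the Tcf1-/+ arrays. The first 2 Tcf1-/- arrays lay below every Tcf1-/+ array, and the genotypes overlapped only in that Tcf1-/- replicate 3 was slightly above Tcf1-/+ replicate 3. The means were 6.33 ± 0.56 in Tcf1-/- and 7.99 ± 0.96 in Tcf1-/+ (SD, n = 3 each), a log2 difference of -1.66 whose 95% confidence interval ran between -3.00 and -0.32. The Tcf1-/- level was thus 0.316 of the Tcf1-/+ level, with an unadjusted p of 0.0231 and an adjusted p of 0.697 from limma. Among all probe sets, 1.08% had a more negative difference. Without Tcf1-/- replicate 2 the difference was -1.52.

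Cd3d encodes the delta chain. It was at 6.61, 6.67 and 6.81 on the Tcf1-/- arrays and at 7.76, 8.55 and 6.97 on the Tcf1-/+ arrays. The 3 Tcf1-/- arrays lay close together with an SD of 0.10, and Tcf1-/+ replicate 3 came nearest to them. Its means were 6.70 ± 0.10 in Tcf1-/- and 7.76 ± 0.79 in Tcf1-/+ (SD, n = 3 each), a difference of -1.06 (95% interval -2.07 to -0.06), which is 0.48 of the Tcf1-/+ level. Limma gave it an unadjusted p of 0.0414 and an adjusted p of 0.746. Without Tcf1-/- replicate 2 the difference was -1.05, and without Tcf1-/+ replicate 2 it was -0.67.

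Cd3g encodes the gamma chain, which pairs with epsilon in the other dimer. It was at 7.48, 4.65 and 7.18 on the Tcf1-/- arrays and at 7.17, 8.75 and 9.14 on the Tcf1-/+ arrays. Tcf1-/- replicate 2, the array that stood apart, was under background, and the other Tcf1-/- arrays were at the level of Tcf1-/+ replicate 1, so the genotypes overlapped. The means were 6.44 ± 1.55 in Tcf1-/- and 8.35 ± 1.04 in Tcf1-/+ (SD, n = 3 each), a difference of -1.92, and the 95% interval from -4.11 to 0.27 includes 0. The adjusted p from limma was 0.817. Without Tcf1-/- replicate 2 the difference was -1.02.

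Cd247 encodes the zeta chain, which also serves Fc and natural killer receptors. On its brightest probe set, 1426079_at, it was at 10.17, 8.57 and 9.91 on the Tcf1-/- arrays and at 9.77, 9.73 and 9.27 on the Tcf1-/+ arrays. The highest and the lowest of the 6 values were both from Tcf1-/- arrays. The means were 9.55 ± 0.85 in Tcf1-/- and 9.59 ± 0.28 in Tcf1-/+ (SD, n = 3 each), and the difference of -0.04 had an interval of -1.16 to 1.07, so a change of 1 log2 unit in either direction was within it. Without Tcf1-/- replicate 2 the difference was 0.45, of the opposite sign.

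The other 3 probe sets of Cd247 were dimmer. Probe set 1426396_at was at 4.29, 6.95 and 6.89 in Tcf1-/- and at 8.70, 7.13 and 6.78 in Tcf1-/+, and differed by -1.49 (95% interval -3.64 to 0.66). The low value of Tcf1-/- replicate 1 and the high value of Tcf1-/+ replicate 1 set its size, since the remaining 4 arrays lay between 6.78 and 7.13. Without Tcf1-/- replicate 1 its difference was -0.61. Probe set 1452539_a_at was at 4.68, 6.80 and 5.84 in Tcf1-/- and at 5.12, 6.97 and 5.84 in Tcf1-/+, with a difference of -0.20. Probe set 1420716_at was at 6.60, 5.30 and 6.10 in Tcf1-/- and at 5.42, 5.78 and 5.92 in Tcf1-/+, with a difference of 0.29. Over the 6 arrays the brightest probe set correlated at 0.71 with 1420716_at, at -0.29 with 1426396_at and at -0.63 with 1452539_a_at. These correlations describe 6 arrays of 2 genotypes. Of the dimmer probe sets, only 1420716_at correlated positively with the brightest one. On the Tcf1-/+ arrays, however, it rose in the order in which the brightest one fell (9.77, 9.73 and 9.27). Which transcripts each detects was not analysed here.

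Ptcra was at 4.77, 4.47 and 4.11 on the Tcf1-/- arrays and at 5.0, 4.33 and 4.25 on the Tcf1-/+ arrays. All 6 values were under background, and 24.4% of probe sets had a lower mean over the arrays. The means were 4.45 ± 0.33 in Tcf1-/- and 4.52 ± 0.41 in Tcf1-/+ (SD, n = 3 each). A difference of -0.07, with an interval of -0.81 to 0.66, says nothing of its size at this level of signal.

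**Figure D2:**
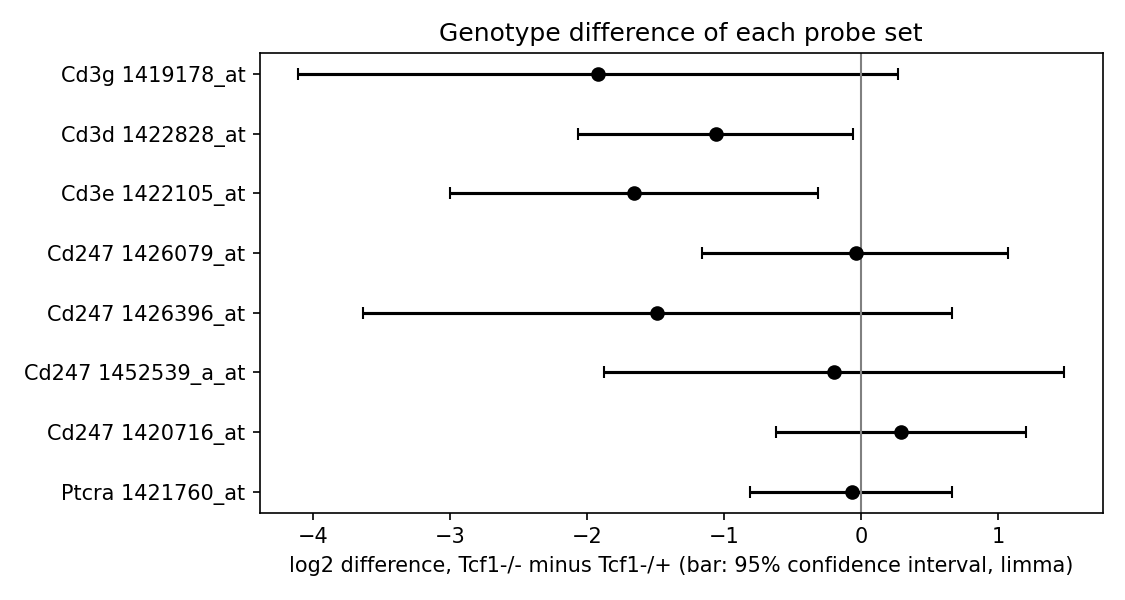
Log2 difference, Tcf1-/- minus Tcf1-/+ (horizontal axis), of each of the 8 probe sets, with its 95% confidence interval from limma. The intervals of Cd3d (-2.07 to -0.06) and Cd3e (-3.00 to -0.32) lie below 0, while those of Cd3g, of Ptcra and of all 4 Cd247 probe sets include 0.

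Cd3d and Cd3e took nearly the same course over the arrays. Their Pearson correlation was 0.95 over the 6 arrays, with Tcf1-/- replicate 1 lowest and Tcf1-/+ replicate 2 highest for both. Cd3g, whose start site faces away from that of Cd3d at 1355 bases, correlated at 0.46 with Cd3d and at 0.49 with Cd3e, and was highest on Tcf1-/+ replicate 3, where the other 2 were lowest among the Tcf1-/+ arrays. The brightest Cd247 probe set correlated at 0.28 with Cd3e, at 0.20 with Cd3d and at 0.53 with Cd3g. The points share arrays and genotypes, and no test was made of these values.

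**Figure D3:**
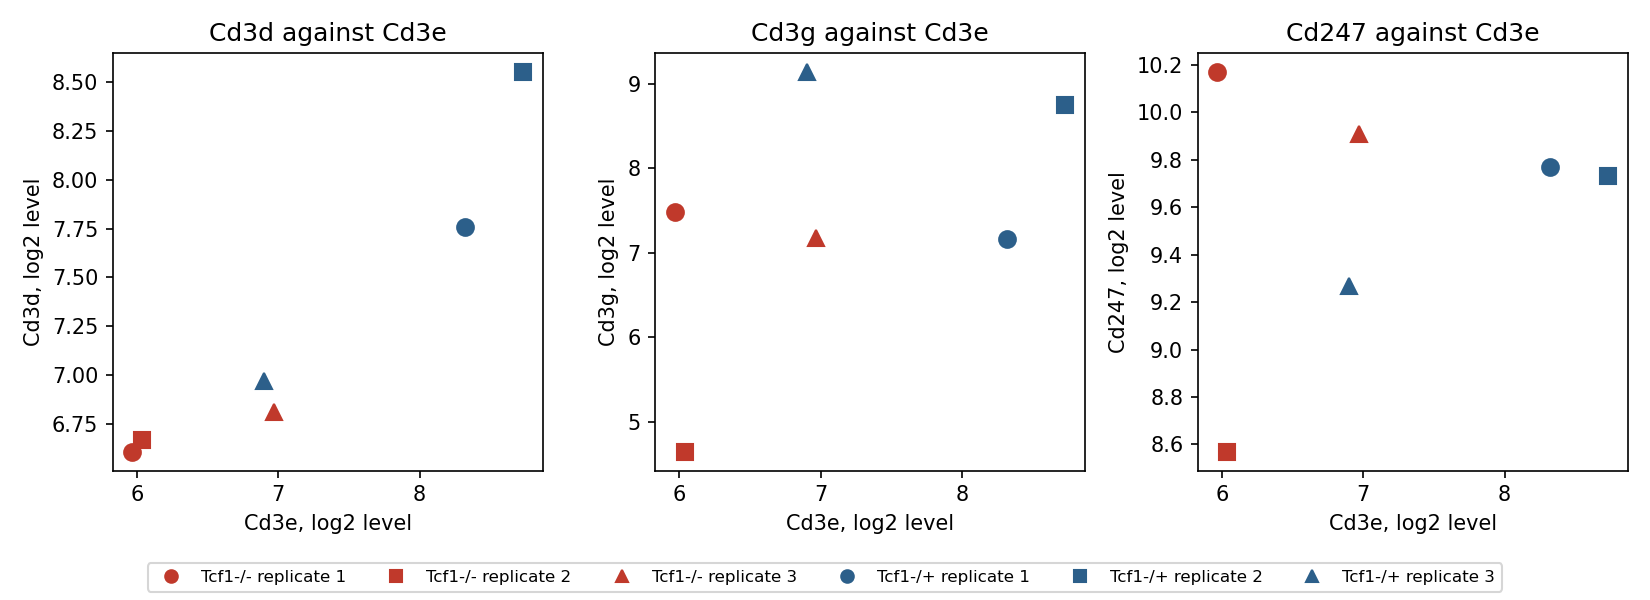
Log2 level of Cd3d, Cd3g and Cd247 (brightest probe set, vertical axes) against that of Cd3e (horizontal axes), 1 point per array, with Tcf1-/- in red and Tcf1-/+ in blue. Cd3d rises with Cd3e over all 6 arrays (r = 0.95), while Cd3g (r = 0.49) and Cd247 (r = 0.28) scatter.

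Distances between 2 probe sets on the same array remove only a shift common to the whole array, and array medians lay between 5.80 and 5.86. They carry the scatter of both probe sets, and the brightest Cd247 probe set was at 10.17, 8.57 and 9.91 in Tcf1-/-. The distance itself depends on the probes, and only its change between genotypes is given a reading here. Cd3e minus Cd247 was -4.19, -2.54 and -2.94 log2 units on the Tcf1-/- arrays, against -1.45, -1.0 and -2.37 on the Tcf1-/+ arrays, which did not overlap, a change of -1.62. Cd3g minus Cd247 was -2.68, -3.92 and -2.73 on the Tcf1-/- arrays, against -2.60, -0.99 and -0.13 on the Tcf1-/+ arrays, a change of -1.87. These distances did not overlap, but only by -2.68 against -2.60, and the levels of Cd3g itself overlapped. Cd3d minus Cd247 was -3.55, -1.90 and -3.10 in Tcf1-/- and -2.01, -1.18 and -2.30 in Tcf1-/+, and the genotypes overlapped. Between Cd3d and Cd3e the change was 0.60, and between Cd3g and Cd3e it was -0.26, with overlap in each case. With the other Cd247 probe sets in place of the brightest, the change of Cd3e minus Cd247 lay between -1.95 and -0.17. That of Cd3g minus Cd247 lay between -2.21 and -0.42, and both overlapped except on 1420716_at. The change of Cd3d minus Cd247 lay between -1.36 and 0.43, with overlap on each, and its sign turned on 1426396_at. How often such distances do not overlap for other gene pairs was not counted. No test was made of these changes.

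**Figure D4:**
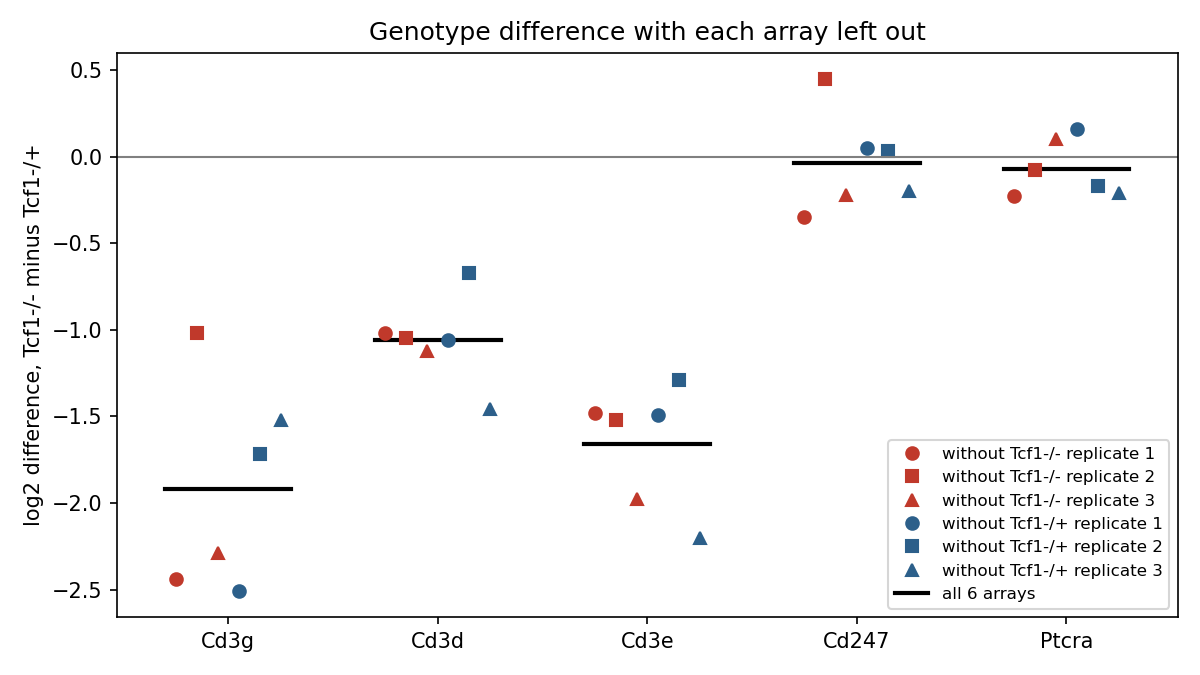
Log2 difference, Tcf1-/- minus Tcf1-/+ (vertical axis), of the brightest probe set of each of the 5 genes with all 6 arrays (black line) and with each array left out in turn (points). The differences of Cd3g (-2.51 to -1.02), Cd3d (-1.46 to -0.67) and Cd3e (-2.20 to -1.29) stay below 0, and those of Cd247 (-0.35 to 0.45) and Ptcra (-0.23 to 0.16) lie on both sides of it.

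The genes whose brightest probe sets followed each chain most closely were sought among 10628 genes brighter than the median probe set, by Pearson correlation over the 6 arrays. They were Sfxn3, Rhof and Rc3h1 for Cd3d, at 0.988, 0.987 and 0.982, and Ociad2, Gm7444 and Unc45a for Cd3e, at 0.989, 0.987 and 0.986. For Cd3g they were Rabgap1, Etv6 and L3mbtl3, at 0.993, 0.988 and 0.986. For Cd247 they were Taldo1, Cnst and Desi1, at 0.989, 0.987 and 0.985, and for Ptcra D730045A05Rik, Stat4 and Trim33, at 0.994, 0.979 and 0.971, where the values of Ptcra itself were all under background. Ociad2 had the same array order as Cd3e within the Tcf1-/+ group, at 4.73, 5.39 and 6.21 in Tcf1-/- and 8.82, 9.17 and 6.67 in Tcf1-/+. These values are the highest of 10628 over only 6 arrays, and were as high for Ptcra, whose signal was under background. They are therefore no result about these genes. No other CD3 chain was among the 3 closest genes of any chain. Even Cd3d and Cd3e, at 0.95, lay below the values listed, so this absence does not set the chains apart.

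The other genes of the receptor pathway were read from a list of 29 components, of which 26 had a probe set with 1 symbol and the others were not analysed here. None passed the adjusted threshold. At an unadjusted p under 0.05, 3 were lower in Tcf1-/- and 2 were higher, against 3.4% lower and 3.38% higher over all genes. The median difference of the 26 was 0.06, and that of all genes was 0.036, and single genes ranged between -2.40 and 2.68. Cd2, an adhesion receptor of T cells, was at 4.96, 5.23 and 6.88 in Tcf1-/- and at 7.51, 9.04 and 7.72 in Tcf1-/+, a difference of -2.40 (SE 0.65; SEs of differences are limma's) without overlap. Cd5, an inhibitory co-receptor, differed by -1.12 (SE 0.38) and Trat1, an adaptor of the receptor complex, by -1.04 (SE 0.37), also without overlap, though the second probe set of Trat1 differed by 0.25. Rasgrp1, which activates Ras below the receptor, was at 8.53, 11.32 and 9.16 in Tcf1-/- and at 5.98, 7.96 and 7.03 in Tcf1-/+, a difference of 2.68 (SE 0.85), or 1.86 without Tcf1-/- replicate 2. Sla, an adaptor known to promote turnover of the receptor complex, differed by 1.24 (SE 0.41). All 4 probe sets of Rasgrp1 and all 4 of Sla had higher Tcf1-/- means.

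Zap70 and Syk, which bind phosphorylated CD3 chains, and the adaptor Lat overlapped between the genotypes on their brightest probe sets. Zap70 was at 7.98, 9.14 and 7.86 in Tcf1-/- and at 7.96, 8.19 and 8.28 in Tcf1-/+, a difference of 0.19 (SE 0.38), which turned to -0.22 without Tcf1-/- replicate 2. The brightest Syk probe set gave a difference of -0.47 (SE 0.70), against -0.69, -1.33 and -1.03 for the other 3, and the one at -0.69 did not overlap between the genotypes. The mean of the Syk probe sets differed by -0.88, with an unadjusted p of 0.00652 from limma. Lat, the adaptor that Zap70 phosphorylates, differed by 0.56 (SE 0.39). These genes were above background in both genotypes.

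For the genes that assemble the receptor chains, 6 of 23 listed symbols had a probe set of their own, among them Ptcra and Trat1, and the constant regions of the beta, gamma and delta chains were not analysed here. Dntt, the template-free polymerase that adds bases at junctions, was at 11.05, 12.19 and 11.75 in Tcf1-/- and at 12.97, 13.19 and 12.90 in Tcf1-/+, a difference of -1.36 (SE 0.33) without overlap, and its other 2 probe sets differed by -1.57 and -2.38. Rag1 was at 3.86, 4.23 and 6.18 in Tcf1-/- and at 6.79, 6.08 and 7.06 in Tcf1-/+, with 2 Tcf1-/- arrays under background. Rag2, the partner of Rag1 in the recombinase, differed by -0.09 (SE 0.32). Tcra, the alpha chain, was under background in both genotypes, with means of 4.17 in Tcf1-/- and 4.0 in Tcf1-/+. Of these genes, 5 of 6 had lower Tcf1-/- means, as had 45.7% of all genes, and 0 passed the adjusted threshold. The 5 include Rag2 and Ptcra, whose differences were near 0.

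The zeta chain is related to Fcer1g, the gamma chain of Fc receptors, which can take the place of CD3 zeta in some T-cell receptor complexes. Fcer1g was at 9.92, 10.67 and 10.22 in Tcf1-/- and at 7.59, 8.36 and 8.04 in Tcf1-/+. Every Tcf1-/- array was above every Tcf1-/+ array, with a difference of 2.27, an interval of 1.52 to 3.02 and an adjusted p of 0.384 from limma. Tyrobp, the ITAM chain of several natural killer and myeloid receptors, differed by -0.11 (SE 0.23). Of the receptors that use these chains, Klrk1 differed by 1.26 (SE 0.86), Fcer1a by 1.38 (SE 1.01) and Fcgr3 by 0.91 (SE 0.71), and each overlapped between the genotypes. Leaving out 1 array brought Klrk1 to 0.42 (without Tcf1-/- replicate 2), Fcer1a to 0.50 and Fcgr3 to 0.22 (both without Tcf1-/+ replicate 2). Of 13 measured genes in this list 11 had higher Tcf1-/- means, against 54.3% of all genes, with a median of 0.15. Of these 13, 1 was higher at an unadjusted p under 0.05, as were 3.38% of all genes.

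Of 25 measured transcription factors of T-lineage genes, 15 had lower and 10 higher Tcf1-/- means, against 45.7% lower over all genes. Their median difference was -0.29, and that of all genes was 0.036. In this list, 4 lower and 1 higher had an unadjusted p under 0.05, against 3.4% lower and 3.38% higher over all genes. Lef1, the relative of Tcf1 that binds the same motif, was at 7.69, 7.51 and 7.75 in Tcf1-/- and at 8.64, 8.41 and 8.63 in Tcf1-/+, a difference of -0.91 (SE 0.19). Satb1, a chromatin organizer of thymocytes, differed by -0.73 (SE 0.23) and the HMG-box factor Sox4 by -0.76 (SE 0.27), both without overlap on their brightest probe sets. All their probe sets were lower in mean, though some overlapped between the genotypes. Those included a Satb1 probe set at -0.22 and Sox4 probe sets at -0.10 and -0.04, these last with means under background. E proteins bind the E-box, and Id2 holds them off DNA. The E protein genes Tcf3 and Tcf12 differed by 1.51 (SE 0.63) and 0.53 (SE 0.52), with overlap. The other Tcf3 probe sets differed by only 0.50 and 0.10, and 3 of the 4 other Tcf12 probe sets had lower means. Id2 differed by 3.19 (SE 0.49), the highest difference in this list. Gata3, at -0.39 (SE 0.40), Bcl11b, at 0.62 (SE 0.32), and Notch1, at -0.38 (SE 0.36), overlapped between the genotypes.

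**Figure D5:**
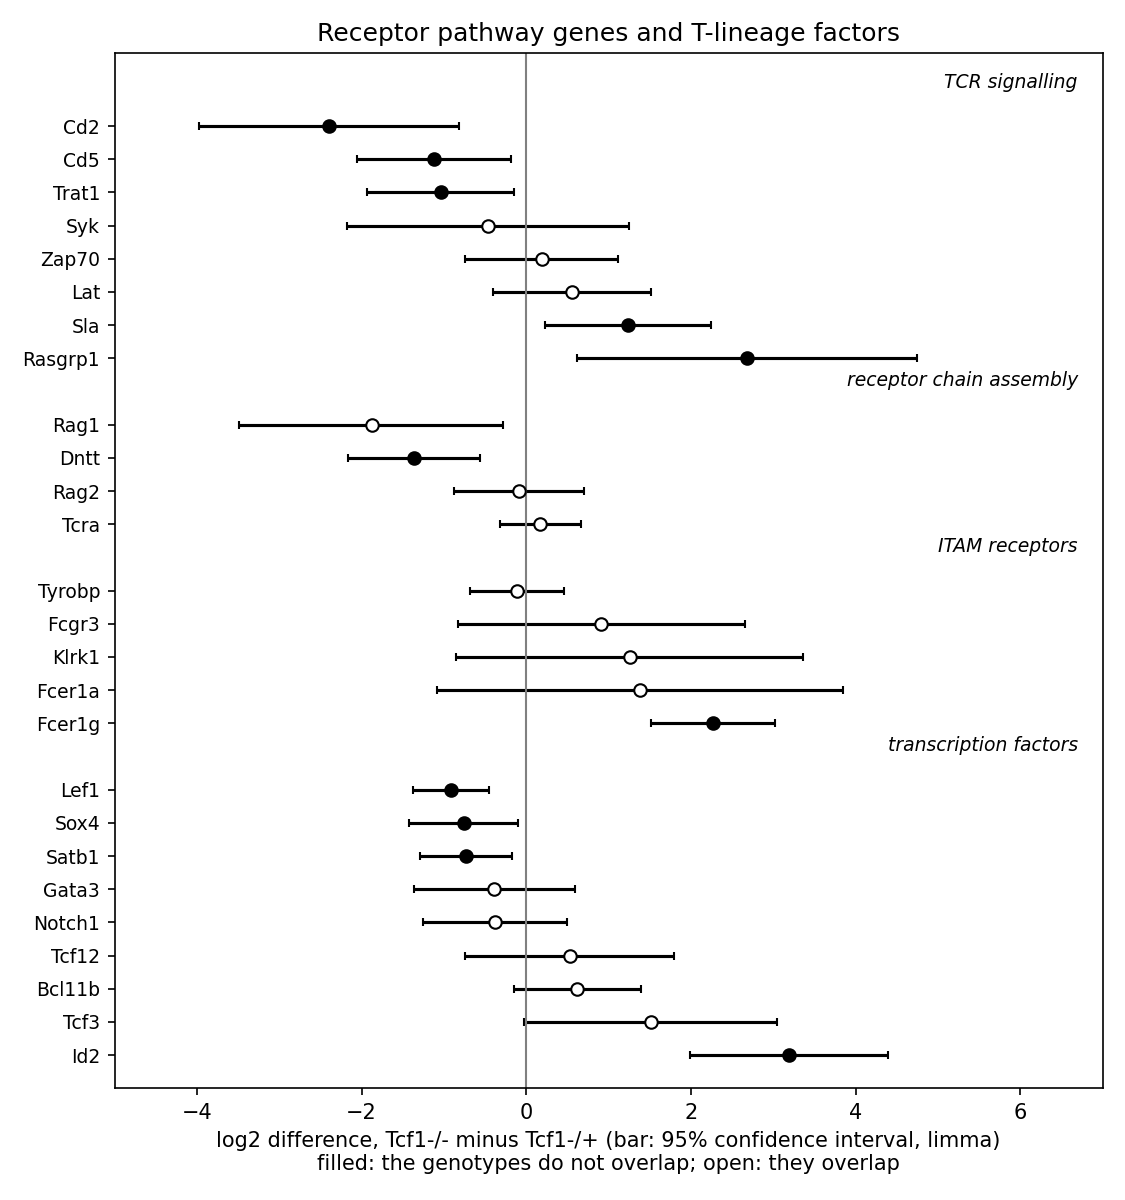
Log2 difference, Tcf1-/- minus Tcf1-/+ (horizontal axis), with its 95% confidence interval from limma, of genes of the receptor pathway, of receptor chain assembly, of other ITAM receptors and of transcription factors. Filled points mark genes whose genotypes do not overlap; Cd2 (-2.40) lies farthest to the left and Id2 (3.19) farthest to the right.

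Markers of the sort gate and of other cells were read on the same arrays. The mean log2 level of 9 gate and early progenitor genes was 9.89 to 9.98 on the Tcf1-/- arrays and 10.16 to 10.23 on the Tcf1-/+ arrays, and none was under background on any array. Kit was at 9.99, 7.45 and 9.60 in Tcf1-/- and at 10.80, 10.5 and 9.83 in Tcf1-/+. Il2ra, the gene of CD25, whose protein the gate excluded, was at 9.32, 10.97 and 10.53 in Tcf1-/- and at 9.22, 9.38 and 10.17 in Tcf1-/+ on its brightest probe set, while its other probe set differed by -1.29, of the opposite sign. Il7r, the receptor chain for interleukin 7, was higher in Tcf1-/- without overlap (2.00, SE 0.40), and Flt3 (-1.53, SE 0.42) and Cd34 (-1.24, SE 0.36), markers of early progenitors, were lower without overlap. Later thymocyte and mature T-cell genes, 15 in number and including Rag1, Dntt and Cd5, averaged 6.87 to 7.44 in Tcf1-/- and 7.07 to 7.63 in Tcf1-/+. Of the co-receptors in that list, Cd4 was at 8.73, 9.86 and 8.51 in Tcf1-/- and at 5.49, 7.27 and 5.53 in Tcf1-/+ on its brightest probe set. Its difference of 2.93 was opposite in sign to those of Cd3d and Cd3e. The other Cd4 probe set differed by 1.61, with overlap between the genotypes. Cd8a differed by 0.46 (SE 0.56). Cd28, a costimulatory receptor, was at 4.33, 4.25 and 4.71 in Tcf1-/-, all under background, and at 6.11, 8.89 and 7.20 in Tcf1-/+, a difference of -2.97 (SE 0.69). Its other probe set differed by -2.22, with overlap.

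The mean of 18 natural killer and innate lymphoid markers was 7.47 to 7.90 on the Tcf1-/- arrays and 6.53 to 7.01 on the Tcf1-/+ arrays, without overlap, with 4 to 5 of the 18 under background in Tcf1-/- and 4 to 6 in Tcf1-/+. Of these 18, 12 had higher and 6 lower Tcf1-/- means, against 54.3% higher over all genes, with a median difference of 0.18. At an unadjusted p under 0.05, 7 were higher and 1, Klrd1, was lower in Tcf1-/-, against 3.38% and 3.4% of all genes. Klrd1 differed by -1.49 (SE 0.60) without overlap on its brightest probe set. Gzmb, a protease of cytotoxic granules, was at 11.08, 9.59 and 10.78 in Tcf1-/- and at 6.16, 5.38 and 7.73 in Tcf1-/+, a difference of 4.06 (SE 0.69). Cxcr6, a chemokine receptor, was at 7.62, 11.23 and 9.40 in Tcf1-/- and at 4.93, 6.34 and 3.49 in Tcf1-/+. Neither overlapped between the genotypes. The mean of 7 mast cell and basophil markers was 8.17 to 9.68 in Tcf1-/- and 7.16 to 7.83 in Tcf1-/+, also without overlap. The marker means overlapped between genotypes for 10 B-lineage genes (5.66 to 5.86 in Tcf1-/- and 5.41 to 5.77 in Tcf1-/+), 12 myeloid genes (7.08 to 8.39 in Tcf1-/- and 6.51 to 8.50 in Tcf1-/+) and 9 dendritic genes (7.25 to 8.38 in Tcf1-/- and 7.58 to 8.79 in Tcf1-/+). They also overlapped for 7 erythroid genes (6.53 to 7.63 in Tcf1-/- and 5.50 to 7.35 in Tcf1-/+) and 8 stromal genes (6.07 to 6.23 in Tcf1-/- and 5.52 to 6.10 in Tcf1-/+). The part of these cell types in the levels of the CD3 chains was not tested.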

How the data were processed

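RNA of 3 Tcf1-/- and 3 Tcf1-/+ samples was extracted from sorted thymocytes, amplified with a whole-transcriptome kit and hybridized to Affymetrix arrays, per the labels' protocols. The deposited values are log2 levels per probe set, as taken from their range of 2.15 to 14.81. The authors' summary and normalization steps are not stated in the labels or the file. The values were used as deposited. Of 45101 probe sets, 64 array controls were left out. The platform annotation gave 1 symbol to 34945 of the rest, several to 932 and none here to 9160, and all 5 genes matched RefSeq by gene identifier. Each gene is read from its brightest probe set, judged by the mean of all arrays, and the other probe sets of the 5 genes are all given. Columns not used numbered 0.

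Genotypes were compared over all probe sets with R 4.3.3 and limma 3.58.1 (lmFit, eBayes, two-sided, Benjamini-Hochberg, threshold 0.05), as Tcf1-/- minus Tcf1-/+, and the fit was tested on simulated data with known changes. Arrays have no read depth, and their number limits the precision. P-values set the genotype difference against the spread between these arrays, which limma moderates with all probe sets. The alternatives were a replicate block, 2 further normalizations, a floor, a filter, array weights, another variance model, a Y-linked covariate, the mean of a gene's probe sets and leaving out each array.

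The genes named are all probe sets of the 5 members, the 3 genes most like each, the 4 genes of smallest p in each pathway list and a fixed set of regulators and receptors, of which those measured are given. Il7r, Flt3, Cd34, Cd28, Klrd1, Gzmb and Cxcr6 were added after their values were seen. The members and lists were chosen with earlier results of these data known. Promoter sequences are from RefSeq, and protein sequences were not used here.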

Additional observations from a re-analysis of the deposited data

How the results depend on the processing

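With each of 15 alternative settings, 0 probe sets passed limma's adjusted threshold, and the number with an unadjusted p under 0.05 lay between 1318 (1 mean per gene) and 3487, against 2917. No adjusted call could therefore be lost, whereas of the 5 genes the number lower at an unadjusted p under 0.05 ranged between 0 and 2. The differences of Cd3g, Cd3d and Cd3e kept their sign in all 14 settings that apply to them, between -2.51 and -1.02, -1.46 and -0.67, and -2.20 and -1.29. With array number as a replicate block their values were -1.92, -1.06 and -1.66, with unadjusted p of 0.102, 0.0581 and 0.0599, and the block changed no adjusted call. Same-numbered arrays of the 2 genotypes deviated from their group means with correlations of 0.0298, 0.0445 and 0.0117, and were not taken as pairs. With the Y-linked covariate they were -1.83, -1.31 and -1.95. The sign of the brightest Cd247 probe set turned with array weights, at 0.16, and with the Y-linked covariate, at 0.04, and leaving out single arrays gave -0.35 to 0.45, with 0.45 without Tcf1-/- replicate 2, 0.05 without Tcf1-/+ replicate 1 and 0.03 without Tcf1-/+ replicate 2. Leaving out single arrays gave -0.71 to 0.34 for 1452539_a_at, with 0.34 without Tcf1-/- replicate 1 and 0.30 without Tcf1-/+ replicate 2, and -0.01 to 0.64 for 1420716_at, with -0.01 without Tcf1-/- replicate 1. For Ptcra it gave -0.23 to 0.16, with 0.10 without Tcf1-/- replicate 3 and 0.16 without Tcf1-/+ replicate 1, and the Y-linked covariate gave 0.04. Ptcra had no value with the floor or the filter, both of which remove signal under background. Signs also turned for Zap70 (single arrays left out, -0.22 to 0.42), at -0.22 without Tcf1-/- replicate 2, Syk (-1.21 to 0.04), at 0.02 with the Y-linked covariate and 0.04 without Tcf1-/- replicate 3, and Tyrobp (-0.21 to 0.06), at 0.06 without Tcf1-/- replicate 2. Rag2 (-0.31 to 0.14) turned at 0.14 without Tcf1-/- replicate 1 and at 0.07 without Tcf1-/+ replicate 1, and Il2ra at -0.30 with the mean of its probe sets. With 1426396_at in place of the brightest Cd247 probe set, a choice added after the data were seen, Cd3d minus Cd247 changed by 0.43, against -1.02. The cause of these turns was not tested. The 3 arrays of a genotype limit the precision, and signal under 5.21 is not told from background.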
